A study of Rattus norvegicus with 24 samples.

Results

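The genes described here mostly encode core proteins of the spliceosome, SR proteins and heterogeneous nuclear ribonucleoproteins (hnRNPs). They were taken by symbol as the rows whose gene name starts with Sf3a or Sf3b and a number, Snrp, Lsm and a number, Prpf and a number, Srsf and a number, U2af or Hnrnp. The rule found 77 of the 17711 rows of the expression table. These were 9 rows of the SF3A and SF3B family, 11 of the Snrp family, 12 of the Lsm family, 12 of the Prpf family, 11 of the Srsf family, 2 of the U2af family and 20 of the Hnrnp family. Hnrnpab and Hnrnph3 each have 2 rows, and Snrpn shares its row with Snurf, so the reads of these last genes cannot be told apart. Male Sprague-Dawley rats had pressed a lever for intravenous methamphetamine (MA, 0.05 mg/kg per infusion) or for saline (SA) in daily sessions of 2 h over 16 days. All rats had first been trained with food pellets, only rats that learned well were kept, and all carried an intravenous catheter, which the SA rats therefore share with the MA rats. mRNA of the striatum, a part of the basal ganglia, and of whisker follicles was sequenced, with 6 libraries for each of the 4 groups. Both tissues are whole samples of many cell types, in which fewer cells of a type and less RNA per cell cannot be told apart.

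The spliceosome removes introns from pre-mRNA. Its small nuclear ribonucleoproteins (snRNPs) each hold an RNA on a ring of proteins. This is the Sm ring made of SmB, SmD, SmE, SmF and SmG proteins from Snrp genes, or the Lsm ring of the U6 snRNP. The Lsm rows were taken by symbol and not by membership of that ring, so the Lsm family values are not those of the ring alone. The SF3A and SF3B complexes are parts of the U2 snRNP and bind at the branch point, the U2AF pair reads the 3′ splice site, and Prpf proteins build the U4/U6.U5 tri-snRNP and drive its rearrangements. SR proteins (Srsf genes) bind exons and mostly favour their inclusion, while hnRNPs coat nascent RNA and often act against them, and several members of both families regulate their own mRNAs through exons that trigger decay.

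Of the member genes, 71 have a promoter sequence in the RefSeq table of the GRCr8 build, which is a later build than the rn6 genome named for the expression table. The 150 bases before the annotated start are shown for some of the members on which the comparisons below turn. In MA whisker follicles no member was called with all libraries at equal weight. Once 1 SA library (library 0) was left out, Lsm5, Snrpf, Snrpb2, Sf3b5 and Srsf3 were called lower and Hnrnph2 and Hnrnpa2b1 higher. It held the lowest SA values of the lower genes and the highest of the higher ones, so leaving it out widened these differences. Snrpn had the largest difference between tissues. Capitals mark every match, on either strand, to CCAAT (the CCAAT box), GGGCGG (the GC box), CCGGAAG (an ETS motif), TATAAA (the TATA box) or GCATGCG (the core of the NRF1 motif). Neighbouring matches may overlap. Each window shown holds a match. Of the other members called without that SA library, Snrpd2 and Hnrnpul2 have windows without a match. The windows of Lsm2, Lsm3, Lsm7, Snrpd1 and Hnrnpdl hold at least 1 and are not shown either. The positions, from 5′ to 3′ on each gene's own strand, are chr4:87284477-87284626 (minus strand) for Lsm5, chr7:30024163-30024312 (minus strand) for Snrpf, chr3:150852684-150852833 (plus strand) for Snrpb2, chr1:9177039-9177188 (plus strand) for Sf3b5, chr20:7093435-7093584 (plus strand) for Srsf3, chrX:102074099-102074248 (plus strand) for Hnrnph2, chr4:81875887-81876036 (minus strand) for Hnrnpa2b1 and chr1:120338920-120339069 (minus strand) for Snrpn.
Lsm5: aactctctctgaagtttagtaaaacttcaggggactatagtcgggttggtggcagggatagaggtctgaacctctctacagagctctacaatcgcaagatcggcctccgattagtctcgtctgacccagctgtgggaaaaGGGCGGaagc
Snrpf: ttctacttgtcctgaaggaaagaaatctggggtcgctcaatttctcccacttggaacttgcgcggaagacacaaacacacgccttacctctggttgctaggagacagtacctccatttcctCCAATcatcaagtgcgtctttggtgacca
Snrpb2: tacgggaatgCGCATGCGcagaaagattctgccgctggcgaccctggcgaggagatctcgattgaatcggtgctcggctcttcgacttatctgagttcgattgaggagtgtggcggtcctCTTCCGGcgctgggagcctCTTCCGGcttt
Sf3b5: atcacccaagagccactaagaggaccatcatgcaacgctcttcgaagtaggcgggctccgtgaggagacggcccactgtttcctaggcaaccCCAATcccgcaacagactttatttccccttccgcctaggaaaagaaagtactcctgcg
Srsf3: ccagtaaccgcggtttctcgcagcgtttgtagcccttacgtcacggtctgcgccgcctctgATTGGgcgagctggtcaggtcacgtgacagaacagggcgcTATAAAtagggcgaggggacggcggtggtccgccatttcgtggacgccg
Hnrnph2: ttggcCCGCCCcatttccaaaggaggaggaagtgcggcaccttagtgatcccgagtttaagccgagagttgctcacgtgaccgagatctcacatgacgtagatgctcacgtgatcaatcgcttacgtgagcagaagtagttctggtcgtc
Hnrnpa2b1: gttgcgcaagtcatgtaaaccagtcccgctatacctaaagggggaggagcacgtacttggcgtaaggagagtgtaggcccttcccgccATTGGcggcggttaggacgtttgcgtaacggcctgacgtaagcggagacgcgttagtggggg
Snrpn: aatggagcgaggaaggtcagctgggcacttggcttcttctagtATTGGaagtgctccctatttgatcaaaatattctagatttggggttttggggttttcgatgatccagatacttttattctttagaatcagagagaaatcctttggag
The ETS motif was found in 15 of the 71 member windows (21.1%) and in 6.24% of all 27457 windows of that length. The GC box was found in 33 member windows (46.5% against 27.8%), the CCAAT box in 25 (35.2% against 23.7%), the NRF1 core in 8 (11.3% against 2.37%) and the TATA box in 4 (5.63% against 8.16%). Member windows also held more G and C, with a median of 59.3% against 53.3%. The ETS motif was in 5 of 11 Snrp windows and 1 of 10 Lsm windows, and the GC box in 7 of 10 Lsm windows and 2 of 11 Snrp windows. A match is a description of the letters in these windows and not a binding site.

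The values are FPKM, fragments scaled to the transcript's length and to the mapped total of the library. This is meant to put different genes on a common scale. Some rows of widely used genes were listed near 0, so comparisons of level between genes are approximate. Read counts were not analysed here, so the counting depth behind each value is unknown. The 77 rows together made up 0.572% to 0.708% of the summed FPKM of a striatum library and 0.235% to 0.375% of that of a whisker follicle library, where the 10 highest genes alone took 27.1% to 44.0%. The sum of 10 medium spiny neuron genes was 2376 to 5852 FPKM in the striatum and 3.10 to 27.9 FPKM in the follicle, and that of 10 hair shaft keratins 26243 to 89477 FPKM in the follicle and 0.922 to 37.3 FPKM in the striatum. The sum of 5 astrocyte genes did not set the tissues apart, at 530.4 to 1054 FPKM in the striatum and 702 to 1161 FPKM in the follicle. Column names number the libraries of each group from 0 to 5, and libraries are named here by that number, which is not tied to a rat. SA library 0 of the whisker follicle stood apart: among 9138 tested genes it was the lowest of the 6 SA libraries in 37.6% and the highest in 34.8%. SA library 5 lay at the other end for many genes, and it had the highest follicle sums of the 5 oligodendrocyte markers (66.5 FPKM against 5.18 to 8.94 FPKM in the other 11 libraries) and of the medium spiny neuron markers (27.9 FPKM against 3.10 to 8.63 FPKM). The calls in the follicle are given with and without SA library 0.

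In the striatum, none of the members passed the test between MA and SA rats. The comparison was made by limma with log2(FPKM + 1) values, for all rows of the table averaging 1 FPKM or more in the tissue. A gene was called when its Benjamini-Hochberg adjusted p was below 0.05 and the groups differed by 1.5-fold or more. Of the 69 members tested, 0 were called, as was 0.00943% of all 10607 genes, and the other 8 members were under the filter. At an unadjusted p under 0.05, 6 members passed (8.70%), against 8.26% of all genes. The median log2 fold change, MA over SA, was -0.01 over the members and 0.00 over all genes, with 31 members above 0 and 38 below. By family the median was -0.04 for SF3A and SF3B, 0.01 for Snrp, 0.07 for Lsm, 0.00 for Prpf, -0.09 for Srsf, 0.04 for U2af and -0.02 for Hnrnp.

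Sf3b1 had the smallest p of the members in the striatum. It encodes the large SF3B subunit that holds the branch point adenosine. Its level was 39.2, 37.7, 42.2, 46.7, 40.5 and 47.5 FPKM in SA libraries 0 to 5 and 34.3, 40.4, 36.1, 35.8, 28.7 and 31.8 FPKM in MA libraries 0 to 5. Only MA library 1 exceeded any SA library, and the log2 fold change was -0.29 ± 0.09 (SE, n = 6 and 6) with an adjusted p of 0.577. Srsf5, an SR protein known for its induction by insulin in liver cells, ranged from 85.0 through a median of 112 to 122 FPKM in SA and from 65.0 through 87.0 to 101 FPKM in MA. The groups overlapped, with a log2 fold change of -0.32 ± 0.12 and an adjusted p of 0.581.

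The other 4 members with an unadjusted p under 0.05 had smaller fold changes than Sf3b1 and Srsf5. Snrpf, the SmF protein of the Sm ring, was the 1 on the higher side, at 11.9, 12.1 and 14.0 FPKM in SA and 12.4, 14.6 and 16.7 FPKM in MA (lowest, median and highest, log2 fold change 0.21 ± 0.08, adjusted p = 0.592 by limma). Snrpa encodes protein A of the U1 snRNP, and its SA values of 13.0, 17.8 and 19.3 FPKM stood beside 12.4, 13.7 and 16.4 FPKM in MA (-0.25 ± 0.11, adjusted p = 0.597). Srsf11, an SR-related protein, had 24.4, 27.9 and 35.3 FPKM in SA and 23.2, 25.1 and 25.7 FPKM in MA (-0.21 ± 0.09, adjusted p = 0.597). Hnrnph1, which binds runs of G, had 70.5, 71.6 and 77.2 FPKM in SA and 56.7, 65.5 and 71.2 FPKM in MA (-0.15 ± 0.07, adjusted p = 0.602). In all 6 of these genes the ranges of the groups overlapped, and no member had groups that do not overlap, against 0.358% of all genes. The exact two-sided permutation test over the 924 assignments of the 12 libraries gave unadjusted p-values of 0.00649 for Sf3b1, 0.00866 for Hnrnph1, 0.0195 for Snrpf, 0.0325 for Srsf11, 0.0346 for Srsf5 and 0.0584 for Snrpa.

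**Figure D1:**
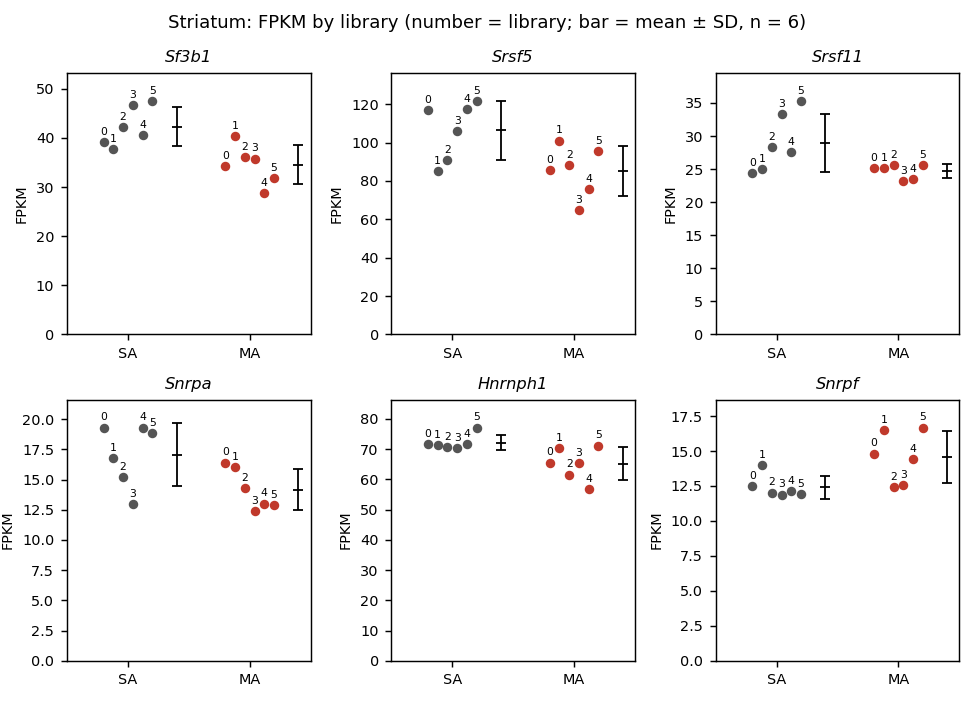
FPKM of the 6 members with an unadjusted p under 0.05 in the striatum, in each of 6 SA and 6 MA libraries (points, numbered by library) with the mean ± SD beside them. In every panel the SA and MA points overlap, for example 37.7 to 47.5 FPKM in SA and 28.7 to 40.4 FPKM in MA for Sf3b1.

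The 4 members that the study's figures show were picked from these same libraries, so their values are no independent evidence. The study tested with Cuffdiff, which was not run here, and the striatum values below are not set against its calls. Lsm3 and Lsm7 are proteins of the Lsm ring, Sf3b5 is a small SF3B subunit and Snrpd2 is the SmD2 protein. Lsm3 had a median of 24.9 FPKM in SA and 25.6 FPKM in MA striatum, and Lsm7 62.5 and 68.7 FPKM. The medians were 84.8 and 86.9 FPKM for Sf3b5 and 60.8 and 64.1 FPKM for Snrpd2. Their log2 fold changes were 0.02 ± 0.11, 0.07 ± 0.11, 0.03 ± 0.10 and 0.13 ± 0.11 (adjusted p 0.974, 0.892, 0.953 and 0.749 by limma). The next smallest p-values in each family belonged to Sf3b6 (0.15) and Sf3a2 (-0.14), Snrpd1 (0.12), Lsm5 (0.28), Lsm4 (0.13) and Lsm6 (0.16), Prpf40b (-0.20) and Prpf4b (-0.14), Srsf3 (0.13), and Hnrnpdl (-0.22) and Hnrnpk (-0.13), each a log2 fold change with an adjusted p of 0.615 or more. The 2 U2af rows had log2 fold changes of at most 0.05, namely 0.03 for U2af1 and 0.05 for its paralogue U2af1l4. No row for U2af2 was among the members, so these values do not describe the U2AF pair. In these libraries the summed level of 4 erythrocyte genes was 339 to 850 FPKM in SA and 606 to 5375 FPKM in MA, and its part in these values was not tested.

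**Figure D2:**
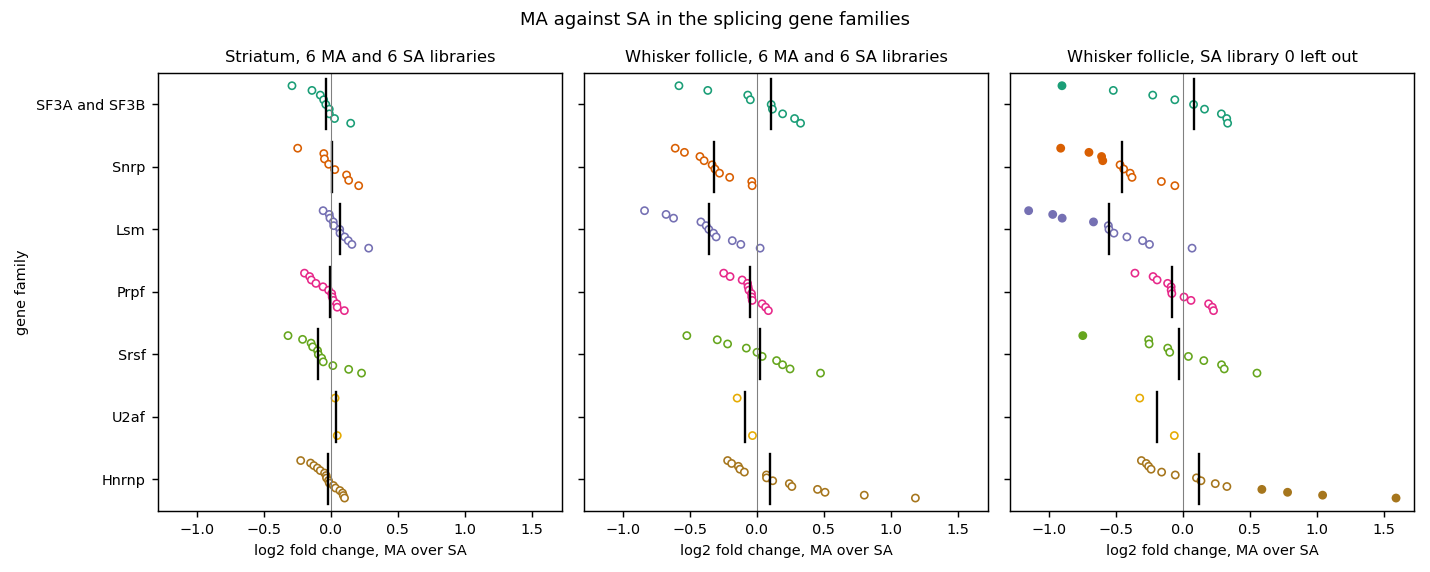
Log2 fold change, MA over SA, of each tested member (points) by family in the striatum, in the whisker follicle and in the whisker follicle without SA library 0. Filled points passed an adjusted p under 0.05 with a fold of at least 1.5 and black bars are family medians, which for Lsm were 0.07, -0.36 and -0.55 in the 3 panels.

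In the whisker follicle, the Snrp and Lsm genes were on the lower side in MA rats and a few Hnrnp genes on the higher side, but with all 12 libraries at equal weight none passed the test. Of 68 members tested, 0 were called, against 0% of all 9138 genes, and 9 members were under the filter. At an unadjusted p under 0.05, 10 members passed (14.7%), against 10.4% of all genes, with 6 on the higher and 4 on the lower side. The median log2 fold change was -0.07 over the members and -0.01 over all genes. All 10 tested Snrp members lay below 0, with a median of -0.32, and so did 10 of 11 Lsm members, with a median of -0.36. The medians were 0.11 for SF3A and SF3B, -0.05 for Prpf, 0.02 for Srsf, -0.09 for U2af and 0.10 for Hnrnp.

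The Snrp and Lsm families varied most between libraries of the SA group. Taking as a score the median deviation of a family's tested genes from their own means over the 12 libraries, the Lsm score was -0.79, 0.06, 0.55, 0.12, 0.66 and 0.84 in SA libraries 0 to 5, and -0.10, -0.59, -0.40, -0.02, -0.04 and -0.21 in MA libraries 0 to 5 (log2 units). SA library 0 was the lowest of all 12 and the other 5 SA libraries were above every MA library. The Snrp score ran in the same order at its ends, from -0.57 in SA library 0 to 0.62 in SA library 5, with MA libraries between -0.35 and 0.13. The scores of the other families stayed within narrower limits, between -0.16 and 0.12 for SF3A and SF3B, -0.15 and 0.05 for Prpf, -0.13 and 0.14 for Srsf and -0.14 and 0.21 for Hnrnp, while U2af, with only 2 genes, ran from -0.47 to 0.36. In the striatum the Lsm score ranged only from -0.14 to 0.18 and the Snrp score from -0.14 to 0.12.

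Ribosomal protein genes, a list chosen after the members' values were seen, lay on the same side in the follicle. Of 74 ribosomal protein genes in the follicle, 70 lay below 0 in MA against SA, with a median log2 difference of -0.48, and in the striatum 56 of 61 lay above 0 with a median of 0.25. Their score was lowest in SA library 0 (-0.93) and highest in SA library 5 (0.88). The sum of 4 outer root sheath and epidermis keratins was 71162 FPKM in SA library 5, the highest of the 12, and 30231 FPKM in SA library 0, where only MA library 5 was lower, at 29967 FPKM. The sum of hair shaft keratins was lowest in SA library 5, at 26243 FPKM, and the summed erythrocyte genes lowest in SA library 0, at 1.33 FPKM. The part of these differences in the Snrp and Lsm values was not tested.

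**Figure D3:**
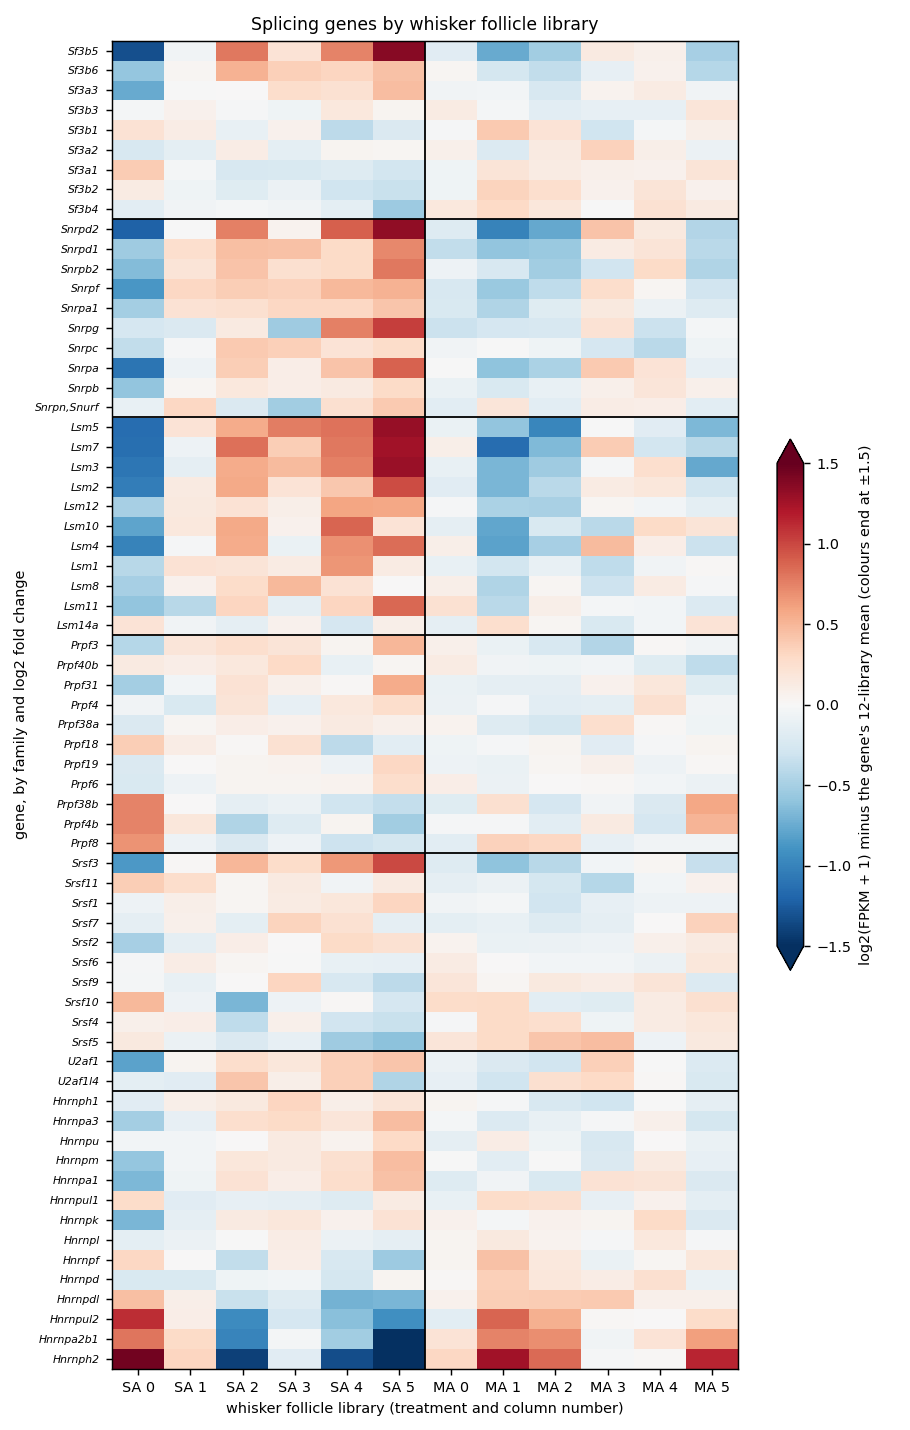
Log2(FPKM + 1) of all but 1 of the 68 tested members in each whisker follicle library (columns, SA 0 to 5 and MA 0 to 5), less the gene's mean over the 12 libraries, with families set apart by lines. Among the 6 SA libraries alone, SA library 0 was the lowest in 37 of the 68 members and SA library 5 the highest in 31. This is most visible in the Snrp and Lsm blocks, while Hnrnph2, Hnrnpa2b1 and Hnrnpul2 run the opposite way.

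Lsm5, a subunit of the Lsm ring, had the most negative log2 fold change of the members in the follicle. It was at 8.10, 22.2, 28.7, 33.5, 34.5 and 49.0 FPKM in SA libraries 0 to 5 and at 17.8, 12.4, 9.23, 19.2, 16.9 and 11.7 FPKM in MA libraries 0 to 5. SA library 0 was below all MA libraries and the other 5 SA libraries were above all of them. The log2 fold change was -0.84 ± 0.34 (adjusted p = 0.465 by limma), and without SA library 0 it was -1.15 ± 0.21 (adjusted p = 0.0168).

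Snrpd1, the SmD1 protein of the Sm ring, was at 22.3, 39.2, 45.3, 44.7, 40.2 and 54.6 FPKM in SA libraries 0 to 5 and at 25.1, 21.4, 21.9, 35.7, 37.5 and 24.5 FPKM in MA. Its log2 fold change was -0.54 ± 0.21 (adjusted p = 0.465), and -0.70 ± 0.16 without SA library 0 (adjusted p = 0.0200). For Snrpd1, SA library 0 lay among the MA libraries and the other SA libraries above them. Snrpd2, its partner in the ring, was the highest Snrp gene in the follicle, at 132, 307, 519, 318, 574 and 776 FPKM in SA and 268, 153, 180.4, 414, 340.1 and 226 FPKM in MA. The SA values spanned the whole MA range, and the log2 fold change was -0.61 ± 0.38 (adjusted p = 0.484). Sf3b5 had nearly the same pattern, with 126, 304, 547, 363, 528 and 816 FPKM in SA against 279, 186, 219.6, 346, 331 and 223 FPKM in MA (-0.58 ± 0.37, adjusted p = 0.483). Lsm3 was at 30.9, 96.0 and 166 FPKM in SA and at 38.7, 53.9 and 80.0 FPKM in MA as lowest, median and highest (-0.62 ± 0.34, adjusted p = 0.466). Lsm7 was at 67.2, 225 and 356 FPKM in SA and at 66.7, 117 and 193 FPKM in MA (-0.68 ± 0.37, adjusted p = 0.466).

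Srsf5 and Sf3b4 had the smallest p-values in the follicle. Srsf5 was at 149.9, 127, 116, 123, 92.6 and 88.0 FPKM in SA libraries 0 to 5 and at 154, 164, 181, 187, 128 and 149.9 FPKM in MA libraries 0 to 5. MA library 4 fell within the range of SA, MA library 5 was level with SA library 0 and the other 4 lay above it. It had a log2 fold change of 0.48 ± 0.15, but its adjusted p was 0.465, and the exact permutation p was 0.00433. Sf3b4, which contacts the pre-mRNA near the branch point, was the single member with groups that do not overlap, against 0.482% of all genes. It was at 51.0, 55.0, 56.0, 54.9, 51.5 and 38.9 FPKM in SA and at 63.9, 70.6, 64.2, 57.0, 67.0 and 62.5 FPKM in MA (0.33 ± 0.10, adjusted p = 0.465). Groups that do not overlap fix its unadjusted exact permutation p at 0.00216, the smallest that 6 against 6 libraries allow. That p therefore adds nothing to the non-overlap. Sf3b2, another SF3B subunit, was at 38.0, 43.8 and 52.5 FPKM in SA and 46.1, 52.9 and 61.1 FPKM in MA (0.28 ± 0.11, adjusted p = 0.465).

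Among the SR proteins, Srsf11 was at 17.2, 19.8 and 23.3 FPKM in SA and 13.0, 16.4 and 18.8 FPKM in MA (-0.29 ± 0.11), and Srsf1, the founding SR protein, at 24.5, 28.0 and 32.6 FPKM in SA and 21.1, 24.5 and 25.3 FPKM in MA (-0.22 ± 0.09), both with an adjusted p of 0.465. Srsf11 was thus below 0 in both tissues and Srsf5 below 0 in the striatum and above 0 in the follicle. Of the Hnrnp genes, Hnrnpd, which binds AU-rich elements, was at 35.9, 39.1 and 44.5 FPKM in SA and 40.4, 47.8 and 55.7 FPKM in MA (0.26 ± 0.10). Hnrnpdl, its close relative, was at 18.9, 26.2 and 43.6 FPKM in SA and 33.0, 37.2 and 41.8 FPKM in MA (0.45 ± 0.19). Hnrnph2 had the largest value, with 44.6, 20.0, 5.35, 13.9, 5.66 and 2.13 FPKM in SA libraries 0 to 5 and 19.7, 39.2, 29.1, 15.6, 15.9 and 36.0 FPKM in MA (1.18 ± 0.54). SA library 0 was the highest of the 12 and SA library 5 the lowest, so that SA alone spanned all MA values. All 3 had an adjusted p of 0.465 by limma.

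The members with the next smallest p of their families in the follicle were Sf3b6 (log2 fold change -0.37), which touches the branch point adenosine, Snrpa1 (-0.33) and Snrpb2 (-0.42), both proteins of the U2 snRNP, followed by Lsm12 (-0.38) and Lsm1 (-0.30), each with an adjusted p of 0.465. In the Prpf family no unadjusted p of limma was under 0.05, and the smallest were those of Prpf40b (-0.20, adjusted p = 0.466), Prpf3 (-0.25, adjusted p = 0.477) and Prpf31 (-0.11, adjusted p = 0.725). U2af1 was at 77.4, 158 and 182 FPKM in SA and 111, 123 and 175 FPKM in MA (-0.15 ± 0.20, adjusted p = 0.717), and U2af1l4 gave -0.03 ± 0.16 (adjusted p = 0.932).

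By the adjusted p alone, with no fold required, 24 of 68 members passed when SA library 0 was left out, against 21.6% of all genes. With a common median for all libraries, and the fold of 1.5 again required, 13 members were called without that library, against 13.4% of all genes. Some of the members just named passed the adjusted p but not the fold in the fit without SA library 0. They were Snrpa1 (-0.47, adjusted p = 0.0200), Sf3b6 (-0.52, adjusted p = 0.0204), Lsm12 (-0.51, adjusted p = 0.0260), Lsm1 (-0.42, adjusted p = 0.0307), Prpf3 (-0.36, adjusted p = 0.0452) and Srsf1 (-0.25, adjusted p = 0.0495) on the lower side by limma. On the higher side they were Srsf5 (0.55, adjusted p = 0.0211), Sf3b2 (0.33, adjusted p = 0.0317) and Sf3b4 (0.33, adjusted p = 0.0462), beside Sf3a1 (0.29, adjusted p = 0.0379), another subunit of the U2 snRNP. Srsf11, Hnrnpd, U2af1, U2af1l4, Prpf40b and Prpf31 had adjusted p-values of 0.0791 to 0.803 in that fit.

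**Figure D4:**
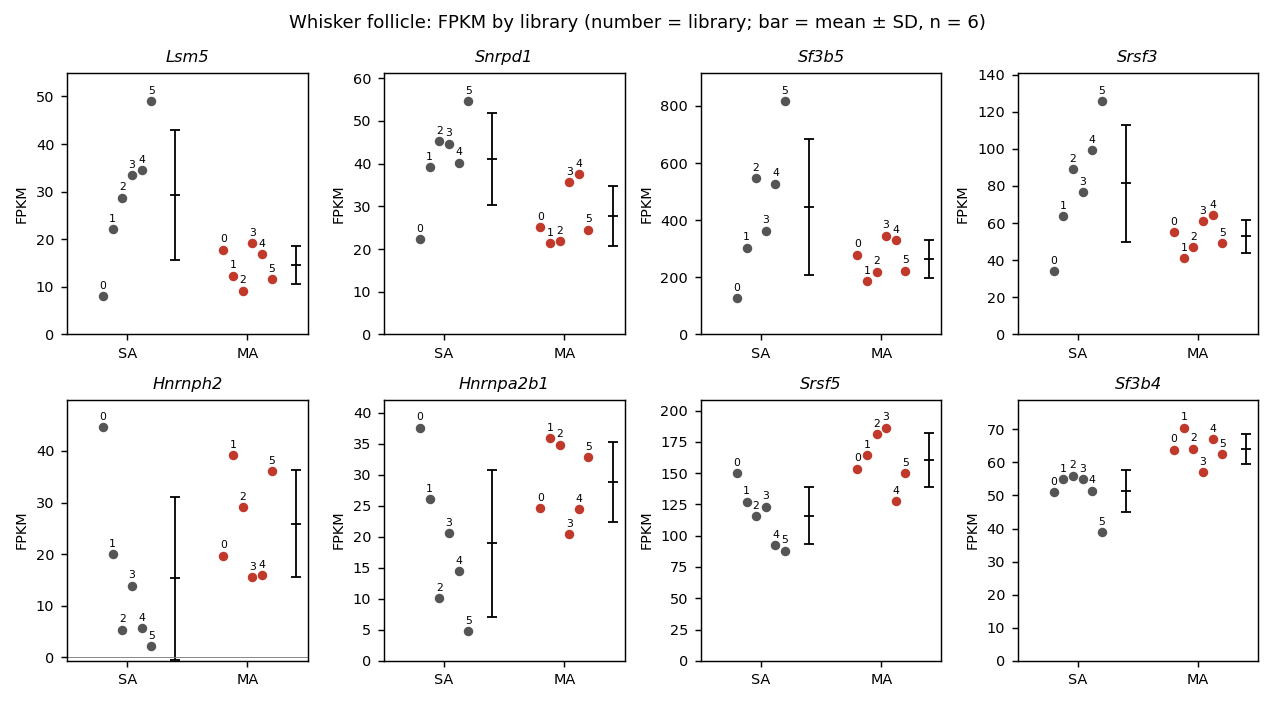
FPKM of 8 members in each of 6 SA and 6 MA whisker follicle libraries (points, numbered by library) with the mean ± SD beside them. For Lsm5, Snrpd1, Sf3b5 and Srsf3, SA library 0 is the lowest SA point, and for Hnrnph2 and Hnrnpa2b1 the highest, at 44.6 and 37.6 FPKM, while Sf3b4 in MA (57.0 to 70.6 FPKM) lies above SA (38.9 to 56.0 FPKM).

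Leaving out SA library 0, singled out after the data were seen, changed the count of calls. Then 14 of the 68 members were called (20.6%), as were 13.5% of 9059 genes. The 4 higher members (against 7.41% of genes called higher) all were Hnrnp genes, and of the 10 lower ones (against 6.05%) 4 were Lsm, 4 Snrp, 1 SF3B and 1 Srsf genes. The largest were Lsm5 (-1.15 ± 0.21), Lsm7 (-0.97 ± 0.28), Snrpd2 (-0.91 ± 0.29), Sf3b5 (-0.90 ± 0.25) and Lsm3 (-0.90 ± 0.24) on the lower side, with adjusted p-values by limma of 0.0168, 0.0305, 0.0446, 0.0266 and 0.0265. Srsf3 (-0.75), Snrpd1 (-0.70), Lsm2 (-0.67), Snrpf (-0.61) and Snrpb2 (-0.60) followed. Srsf3, the smallest SR protein, was at 34.2, 63.6, 88.9, 76.6, 99.3 and 126 FPKM in SA libraries 0 to 5 and at 55.1, 40.9, 46.9, 61.2, 64.3 and 49.3 FPKM in MA. Snrpf was at 26.7, 62.1, 64.6, 63.4, 70.2 and 71.8 FPKM in SA and at 41.8, 33.3, 38.0, 59.8, 50.8 and 40.4 FPKM in MA. In both genes SA library 0 was below every MA library, and for Snrpf the other 5 SA libraries were above every MA library, while for Srsf3 SA library 1 lay within the MA range.

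The 4 higher Hnrnp members without SA library 0 were Hnrnph2 (1.59 ± 0.43, adjusted p = 0.0266), Hnrnpa2b1 (1.04 ± 0.33, adjusted p = 0.0417), Hnrnpul2 (0.78 ± 0.22, adjusted p = 0.0304) and Hnrnpdl (0.59 ± 0.15, adjusted p = 0.0233). The family did not move as a whole. Other Hnrnp genes lay below 0 in that fit and were not called, among them Hnrnpa3 (-0.31), Hnrnph1 (-0.27) and Hnrnpm (-0.25), with adjusted p-values by limma of 0.0601, 0.0506 and 0.0904. Hnrnpa2b1, which also carries mRNAs along dendrites in neurons, was at 37.6, 26.0, 10.1, 20.6, 14.4 and 4.73 FPKM in SA libraries 0 to 5 and at 24.6, 35.9, 34.8, 20.4, 24.5 and 32.8 FPKM in MA. SA library 0 was the highest of all 12 and the SA group spanned the MA group. When limma weighted each library by its fit to its group, SA library 0 received the lowest weight (0.145) and 11 members were called (16.2%, against 12.7% of all genes), all of them among the 14. When SA library 5 was also left out, a choice made after the data were seen, 2 members were called (2.94%, against 3.59% of all genes), Lsm5 and Srsf3. At equal weights, leaving out any 1 library other than SA library 0 gave 0 called members, so calls were made only where that library was left out or given a low weight. Why it stands apart was not tested.

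No member passed the test of a difference in MA effect between the tissues when all 24 libraries had equal weight. The interaction, the log2 fold change in the follicle less that in the striatum, was called for 0 of 65 members and 0.0244% of 8212 genes. At an unadjusted p under 0.05, 15 members passed (23.1%), against 12.5% of all genes. Srsf5 had the smallest p, with a difference of 0.79 ± 0.19 (adjusted p = 0.236), from -0.32 in the striatum and 0.48 in the follicle. Hnrnpdl (0.68 ± 0.22), Sf3b4 (0.40 ± 0.13), Snrpd1 (-0.66 ± 0.23) and Lsm5 (-1.12 ± 0.40) came next, each with an adjusted p of 0.387. The median interaction was -0.45 for Lsm and -0.35 for Snrp, against 0.25 for SF3A and SF3B. Without SA library 0 of the follicle, 14 members (21.5%) and 14.7% of genes were called, and 12 of these 14 were also among the 14 called in the follicle alone, with Sf3b6 and Srsf5 in addition. The libraries of both tissues came from the same rats, which the column names do not pair, and the fit treated them as separate.

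Other splicing genes, a list of 127 symbols in 6 roles of which 119 are in the table, gave no calls with all libraries at equal weight. In the striatum 0 of 111 tested rows were called, with 75 below 0 and a median log2 fold change of -0.04, and the smallest p-values belonged to Snrnp70 (-0.48 ± 0.14), the U1-70K protein, Tia1 (-0.40 ± 0.13) and Srrm1 (-0.21 ± 0.08), each with an adjusted p of 0.577. The SR-related factors and SR kinases had the lowest median in the striatum, -0.09 with 16 of 18 below 0. In the follicle 0 of 103 were called, with a median of -0.05, and Nxf1 (-0.41 ± 0.10), an mRNA export receptor, Tra2b (-0.81 ± 0.24), an SR-like splicing activator, and Rbm22 (0.58 ± 0.18) had the smallest p-values (adjusted p = 0.465 for each). Tra2b was at 17.2, 39.9 and 59.3 FPKM in SA and 16.7, 19.3 and 26.6 FPKM in MA follicles. Without SA library 0, 9 of 102 were called (8.82%, against 13.5% of all genes), with Magoh (-0.86), Tra2b (-1.01), Naa38 (-0.92) and Cwc15 (-0.59) lower and Slu7 (0.84), Rbm22 (0.70), Casc3 (1.25), Snrnp70 (0.74) and Rbfox2 (0.82) higher. Magoh and Casc3, both of the exon junction complex, thus lay on opposite sides. Naa38 was counted as listed, although the symbol names a subunit of an N-terminal acetyltransferase rather than a splicing factor.

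Most members differed between the 2 tissues of SA rats, as did most genes. Of 65 members averaging 1 FPKM or more in each tissue, 45 were called between follicle and striatum (69.2%), against 66.9% of all 8157 genes. In the follicle 28 were higher (against 34% of genes called higher) and 17 lower (against 32.9%). The median log2 fold change, follicle over striatum, was 0.29 over the members and 0.03 over all genes. Of 10 Lsm members 8 were higher and 0 lower (median 1.36), and of 8 Snrp members 7 were higher and 1 lower (median 1.35). Of 14 Hnrnp members 3 were higher and 6 lower (median -0.39), of 12 Prpf members 2 were higher and 5 lower (median -0.07), and of 10 Srsf members 4 were higher and 2 lower (median 0.11). SF3A and SF3B members split into 3 higher and 2 lower of 9. The summed FPKM of an SA library was 348717 to 371477 in the striatum and 1005810 to 1524570 in the follicle. These directions are those of FPKM and were not tested as shares of that sum, of which the 77 rows together made up less in the follicle.

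Snrpn, which encodes the SmN protein that stands in for SmB in neurons and lies in an imprinted region, was the exception among the Snrp genes. The row it shares with Snurf was at 169, 172, 149, 136, 157 and 139.8 FPKM in SA striatum and at 2.61, 3.82, 2.36, 1.72, 3.60 and 4.11 FPKM in SA follicle. The tissues lay far apart, with a log2 fold change of -5.29 ± 0.15 (adjusted p = 2.5e-12 by limma). Snrpb, which encodes SmB itself, was at 38.2, 40.1 and 43.8 FPKM in SA striatum and 77.9, 128 and 145 FPKM in SA follicle as lowest, median and highest (1.55 ± 0.13, adjusted p = 1.16e-07). In MA rats the shared row was at 145 to 170.1 FPKM in the striatum and 2.48 to 3.40 FPKM in the follicle.

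The other leading differences in each family had the following values. Prpf40b, a protein associated with the U1 snRNP, had a log2 fold change of -1.80 ± 0.11, and Prpf38a, which joins the spliceosome before its activation, of 1.34 ± 0.09 (adjusted p 3.35e-09 and 7.19e-09). Srsf4 (-1.31 ± 0.12) was lower and Srsf9 (1.60 ± 0.15) higher in the follicle. Sf3b1 (-0.99 ± 0.11) was lower while Sf3b6 (1.39 ± 0.16) was higher. Lsm12 (1.29 ± 0.16) and Lsm2 (1.71 ± 0.26) were higher, as was Hnrnpf (0.90 ± 0.13), while Hnrnpd (-0.68 ± 0.08) was lower. The 2 U2af rows split, with U2af1 higher (1.37 ± 0.18) and U2af1l4, a paralogue, lower (-0.76 ± 0.15, adjusted p = 0.000287). Snrpd2, the highest Snrp gene of the follicle, was at 438 ± 230.0 FPKM (mean ± SD, n = 6) in SA follicle and in SA striatum at 63.1 ± 7.04 FPKM.

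**Figure D5:**
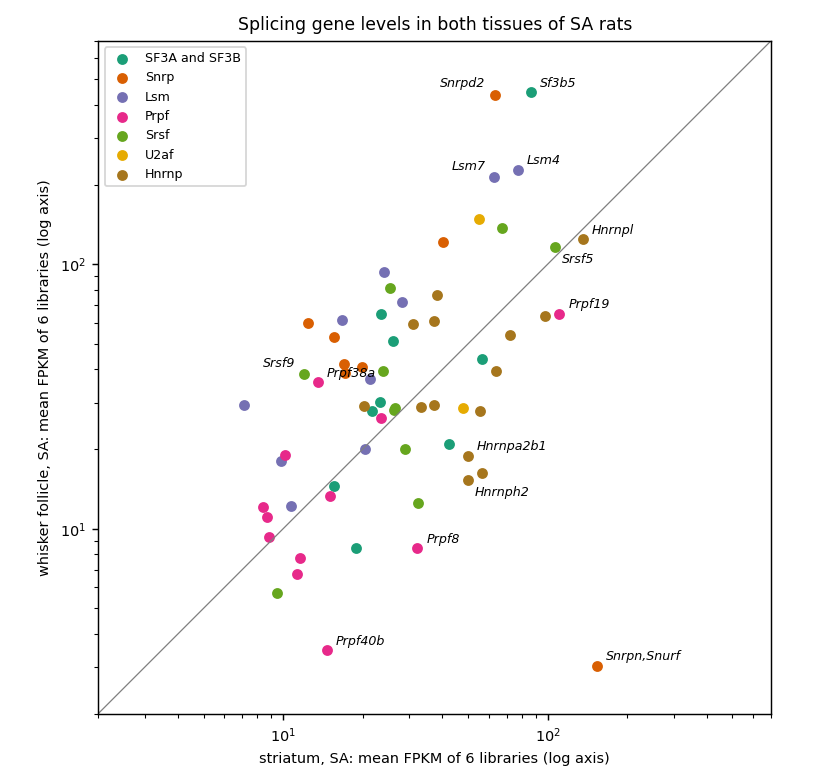
Mean FPKM of the 65 members tested in both tissues of SA rats, striatum on the horizontal and whisker follicle on the vertical axis (both log), coloured by family, with the line of equal levels. Most Lsm and Snrp points lie above the line, most Hnrnp points below it, and the row of Snrpn and Snurf lies far below at 154 FPKM in striatum and 3.04 FPKM in follicle.

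By level, the highest member of each family was in part the same in both tissues. Hnrnpl was the highest Hnrnp gene in each, at 136 ± 8.20 FPKM in SA and 143 ± 10.5 FPKM in MA striatum and at 124 ± 8.59 FPKM in SA and 135 ± 7.38 FPKM in MA follicle (mean ± SD, n = 6). Prpf19, Lsm4, U2af1 and Sf3b5 likewise led their families in both tissues, with SA striatum means of 111, 77.0, 54.8 and 86.7 FPKM and SA follicle means of 65.1, 228, 148 and 447 FPKM. In the Srsf family Srsf5 led in the striatum and in MA follicle, at 161 FPKM, and Srsf2, another SR protein, in SA follicle, at 137 FPKM. In the Snrp family the row of Snrpn and Snurf led in the striatum and Snrpd2 in the follicle. Prpf8, the large protein at the catalytic centre, was at 32.2 ± 5.44 FPKM in SA striatum and 8.43 ± 2.79 FPKM in SA follicle. At the low end, both rows of Hnrnpab were listed at 0 in all 24 libraries and 1 of the 2 rows of Hnrnph3 at 0 in all but 1. Hnrnpc, Snrpe and Snrpc, which every cell uses, were listed at medians of 0.552, 0 and 0.157 FPKM in SA striatum, so these rows cannot be read as absence of expression.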

How the data were processed

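Rats, tissues and libraries are described above. FPKM values were computed by the authors and deposited as 1 table of 17711 rows and 24 columns. The sources differ on the aligner. TopHat2 is named by the paper, after Cutadapt and before Cufflinks, and STAR 2.6.0c by the submitters' processing notes, beside bcl2fastq and Cufflinks 2.2.1, both with rn6. The gene annotation is not given in the sources used here. Read totals were not analysed, so depth is unknown and errors are the spread over 6 libraries per group. Extraction or run batches are not given.

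Columns were assigned to groups by name, and none was left out. FPKM was converted to log2(FPKM + 1), which understates the change of low genes. Genes averaging 1 FPKM or more in the tissue (in both for the interaction and the tissue comparison) were tested by limma 3.58.1 in R 4.3.3 with an intensity trend, two-sided, and Benjamini-Hochberg adjustment over all genes tested. A call needed an adjusted p below 0.05 and a difference of 1.5-fold or more on this scale. Differences are given ± SE and levels ± SD. Exact permutation tests (SciPy 1.17.1) used all 924 assignments of 12 libraries, with a smallest p of 0.00216, and were not adjusted over genes. The fits were run on simulated data with independent noise for each gene. No effect shared across a library was simulated, so that run does not bear on SA library 0. Alternatives changed the pseudocount, filter, scaling, weights, trend and fold rule, and left out each library.

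The members and lists were chosen with earlier results of these data known. The named members are those called, the 3 with the smallest p and the 1 with the highest level per family and tissue, 4 members in the study's figures (Lsm3, Lsm7, Sf3b5, Snrpd2), 2 per family for the tissue comparison, and the 3 other splicing genes with the smallest p per tissue. Members and other splicing genes called without SA library 0, Sf3a1, Srsf2, Prpf8, the genes at the low end and the ribosomal protein genes were chosen after their values were seen. Promoters are RefSeq sequences of GRCr8, matched by symbol. The motifs were chosen with the members' values known, and the NRF1 core replaced a longer form of that motif that had been searched first. The promoters of Sf3b2, Lsm1 and Lsm14a were not in the table used. A gene the rule takes is left unnamed here.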

Additional observations from a re-analysis of the deposited data

Results flagged for a closer look

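Of 140 groups of 6 libraries checked, 8 held a library whose gap to the next was large for the range of its group, and chance flags about 1 in 20. Snrpf was highest in SA library 1 of the striatum, at 14.0 FPKM with the next at 12.5 FPKM, and Hnrnph1 in SA library 5, at 77.2 FPKM with the next at 71.7 FPKM. In the whisker follicle, Sf3b4 was lowest in SA library 5, at 38.9 FPKM with the next at 51.0 FPKM, and Snrpa1 in SA library 0, at 23.4 FPKM with the next at 39.5 FPKM. Srsf1 was lowest in MA library 2 of the follicle, at 21.1 FPKM with the next at 23.9 FPKM. The family scores, medians of log2 deviations, were low for U2af in SA library 2 (-0.27) and MA library 3 (-0.19) of the striatum and for Prpf in MA library 2 of the follicle (-0.15).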

How the results depend on the processing

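With all libraries, the count of 0 members called in each tissue and in the interaction held at equal weights under every pseudocount, filter, scaling, trend and fold rule tried. In the follicle, weighting the libraries gave 11 members (against 12.7% of all genes) and leaving out 1 library gave 0 to 14, with 14 only without SA library 0. The interaction gave 14 members with weighted libraries (against 15.2% of genes) and 0 to 14 with 1 library left out, again 14 only without SA library 0 of the follicle. In settings added after the data were seen, leaving out SA library 0 gave 24 members by adjusted p alone, 13 with a common median and 12 with quantile normalization, against 21.6%, 13.4% and 10.9% of genes, and leaving out SA library 5 as well gave 2, against 3.59%. The cause was not tested. Between tissues 42 to 52 members were called. With quantile normalization 23 were higher in the follicle and 20 lower, against 2731 and 2537 of 8157 genes. With a common median 28 were higher and 15 lower, against 2951 and 2509 genes. Under quantile normalization, the small log2 fold changes in the striatum turned to -0.010 for U2af1l4, -0.026 for U2af1, -0.019 for Lsm3, -0.00069 for Lsm7 and -0.033 for Sf3b5, and that of U2af1 in the follicle to 0.0023. Weighted libraries gave -0.0060 for U2af1 in the striatum. With 1 library left out, the striatum values ranged from -0.0047 to 0.090 for U2af1l4, -0.015 to 0.077 for U2af1, -0.035 to 0.10 for Lsm3 and -0.030 to 0.10 for Sf3b5, and that of U2af1l4 in the follicle from -0.13 to 0.048. Of the named members' other values, 490 in the striatum and 567 in the follicle kept their direction and side of the threshold, and 51 in the follicle newly passed it. No paired analysis was possible because the column names carry an index that is not tied to a rat number. The unknown depth limits what can be said of members at low FPKM.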
